A study of Mus musculus with 2 samples.

Results

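Ribosomal protein genes were examined in chromatin accessibility maps of mouse thymus. They were taken by symbol: protein-coding genes of the GENCODE M21 annotation (mm10) named Rpl or Rps followed by a digit or by p, without the ribosomal S6 kinases (Rps6k genes), Rps19bp1 and symbols ending in -ps or in l with a digit. This gave 82 of 21938 protein-coding genes. The names leave out cytosolic ribosome proteins with other symbols, such as Rpsa, Fau and Rack1, and the paralogs Rpl7l1 and Rpl22l1.

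The assay was DNase-seq, in which DNase I cuts DNA where it is not covered by nucleosomes and the cuts are located by sequencing. There was 1 group, with no treatment and no second genotype: whole thymus of male mice, 2 months old, of the strain B6CASTF1/J, whose parents are the strains C57BL/6J and CAST/EiJ. It held 2 samples, called replicate 1 and replicate 2 here; their labels number the animals separately but share a donor identifier. No test between samples was possible, so values are descriptions of these libraries, set beside the same values over all protein-coding genes.

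The ribosome is made of a small and a large subunit, each of ribosomal RNA and many proteins that are needed in about equal amounts. Most of these proteins come from a single active gene that is used in nearly every cell, and their mRNAs typically begin with a C followed by a run of pyrimidines, the 5' terminal oligopyrimidine tract through which mTOR signalling controls their translation. Developing thymocytes divide rapidly and need many ribosomes. Loss of some ribosomal proteins is known to disturb T cell development or to accompany T cell leukaemia.

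The deposited strict peak lists held 63832 and 67929 entries in replicates 1 and 2, which came to 62230 and 66839 peaks after overlapping entries were joined. The files do not give how many cuts were sequenced, so depth is unknown. In the lower part of the range, scores were whole multiples of a step in each replicate (100% within 0.05 of a step). Higher scores were not checked for this. The median peak held 214 and 226 steps. Over the whole list of markers, the defining genes of thymocytes had an accessible promoter in 8 of 8 cases, those of B cells, macrophages, thymic epithelium and hepatocytes in 0 of 3 each, of erythroid cells in 1 of 3, of endothelium in 2 of 3 and of fibroblasts in 3 of 3. The fibroblast genes had mean scores of 1.25 to 3.82 and the thymocyte genes 2.19 to 9.61. In whole tissue, fewer cells with an open site and fewer cuts per cell cannot be told apart.

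Nearly every ribosomal protein gene had an accessible promoter. A promoter was called accessible when both replicates had a strict peak within 1000 bp of any transcription start site (TSS) annotated for it. This held for 78 of 82 ribosomal protein genes (95.1%), against 12935 of all 21938 protein-coding genes (59.0%). By symbol, the accessible members comprised 31 genes of the small subunit, 44 of the large subunit and 3 of its acidic stalk.

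The 4 genes without an accessible promoter were all paralogs of another member. Rpl10l is an autosomal retrocopy of the X-linked Rpl10 that is used in the male germ line, Rpl39l a testis-enriched paralog of Rpl39, Rpl3l a paralog of Rpl3 made in heart and skeletal muscle, and Rps27rt an intronless copy of Rps27. None of the 4 had a strict or a looser peak within 1000 bp of a TSS in replicate 1 or replicate 2. Nor was any base within 1000 bp of their 5' ends listed in the false discovery rate track, which holds bases under 0.05. Another paralog, Rps27l, a target of p53 that closely resembles Rps27, was accessible, with scores of 8.88 in replicate 1 and 7.18 in replicate 2.

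Where a ribosomal protein promoter was open, it was mostly of higher score than other open promoters, without being among the very highest of the genome. The score of a gene is the highest peak score within 1000 bp of a TSS, in the submitters' signal units. Its median over the 78 accessible members was 11.3 in replicate 1 and 8.45 in replicate 2, and over the 12857 other accessible genes 7.66 and 5.86. On the mean of both replicates, 65 of the 78 (83.3%) lay above the median of all accessible promoters, against 49.8% of other accessible genes. Among the highest 10% of accessible promoters were 13 of the 78 (16.7%), against 9.96% of other accessible genes. The members spanned mean scores of 3.26 to 21.7.

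**Figure D1:**
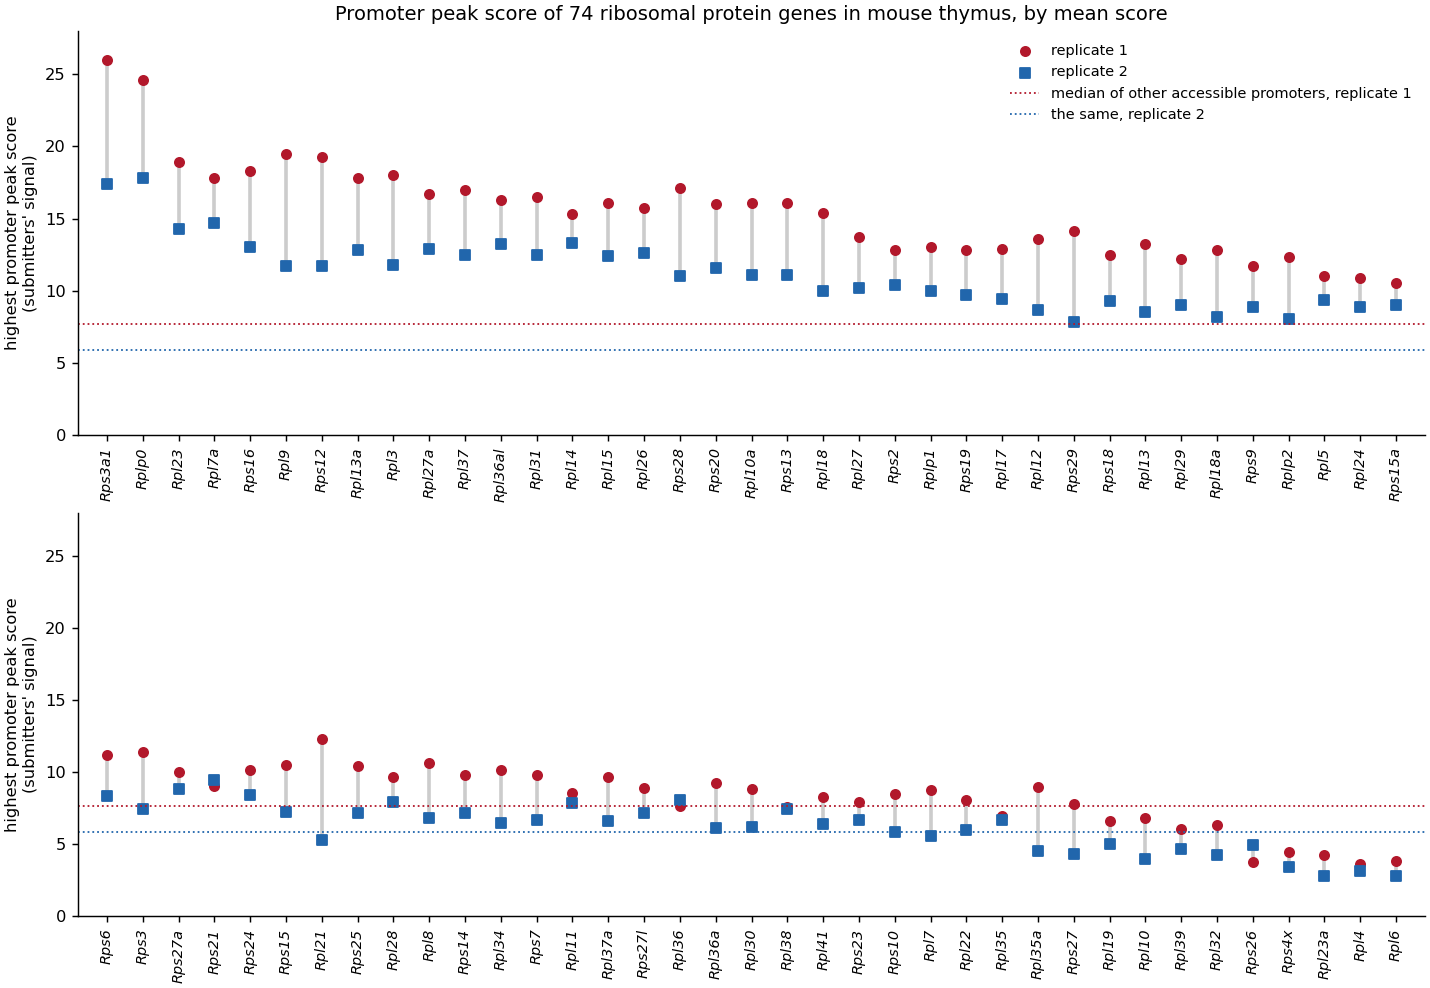
Highest promoter peak score (vertical axis, the submitters' signal) of 74 of the 78 accessible ribosomal protein genes, ordered by mean score, in replicate 1 (circles) and replicate 2 (squares). Dotted lines give the medians of 12857 other accessible promoters, 7.66 in replicate 1 and 5.86 in replicate 2; Rps3a1 and Rplp0 stand above the rest and replicate 2 lies above replicate 1 for Rps26, Rpl36 and Rps21.

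Rps3a1 and Rplp0 stood above all other members. Rps3a1, whose protein lies on the platform of the small subunit near the mRNA exit, scored 26 in replicate 1 and 17.4 in replicate 2 (mean 21.7 ± 6.13, SD, n = 2), rank 129 of the 12935 accessible genes. Its peak in replicate 1 was chr3:86142581-86142860, over its annotated TSS. Rplp0, the protein that anchors the acidic stalk to the large subunit, scored 24.6 and 17.8 (21.2 ± 4.79). The third member, Rpl23, followed at 18.9 and 14.3 (16.6 ± 3.27). Its mean lay below that of Rplp0 by less than the SD of Rplp0, although both replicates of Rplp0 were higher than the same replicate of Rpl23.

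The next members in order had mean scores of 16.2 down to 14.9. They included Rpl7a (17.8 and 14.7), Rps16 (18.3 and 13), Rpl9 (19.5 and 11.7), Rps12 (19.3 and 11.7), Rpl13a (17.8 and 12.8) and Rpl3 (18 and 11.8), which holds a loop close to the peptidyl transferase centre. Their order does not exceed the replicate spread, as each SD lay between 2.14 and 5.57. The order of Rpl3 also rests on the annotated start: against its 5' end alone its mean score was 5.69 and its highest peak lay 4.5 bp upstream of another annotated TSS.

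The 5 lowest were members whose promoters were open but scored under the median of accessible genes in both replicates. Rpl6 scored 3.79 in replicate 1 and 2.74 in replicate 2 (3.26 ± 0.738), Rpl4 3.64 and 3.09 (3.37 ± 0.394), Rpl23a 4.2 and 2.75 (3.47 ± 1.03), Rps4x 4.44 and 3.37 (3.91 ± 0.762) and Rps26 3.72 and 4.90 (4.31 ± 0.839). Their proteins have varied places in the ribosome: Rpl4 lines the peptide exit tunnel, Rpl23a forms the docking site for nascent-chain factors at its end, and Rps26 sits at the mRNA exit channel. In Rps4x and Rpl6 the centre of the highest peak lay 23.5 to 85.5 bp downstream of the nearest TSS.

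In Rpl4 and Rps26 the promoter held separate peaks. Rpl4 had a peak at its start with 2.33 in replicate 1 and 1.64 in replicate 2, and a stronger one centred at -464 and -444 bp from the nearest TSS that lies within 1000 bp of a start of the divergent gene Zwilch. With a window of 2500 bp the mean score of Rpl4 was 7.65. Rps26 had a peak upstream of its 5' end with 3.64 in replicate 1 and 4.90 in replicate 2, and another over downstream starts with 3.72 and 3.19, so that a different peak was the highest in each replicate.

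**Figure D2:**
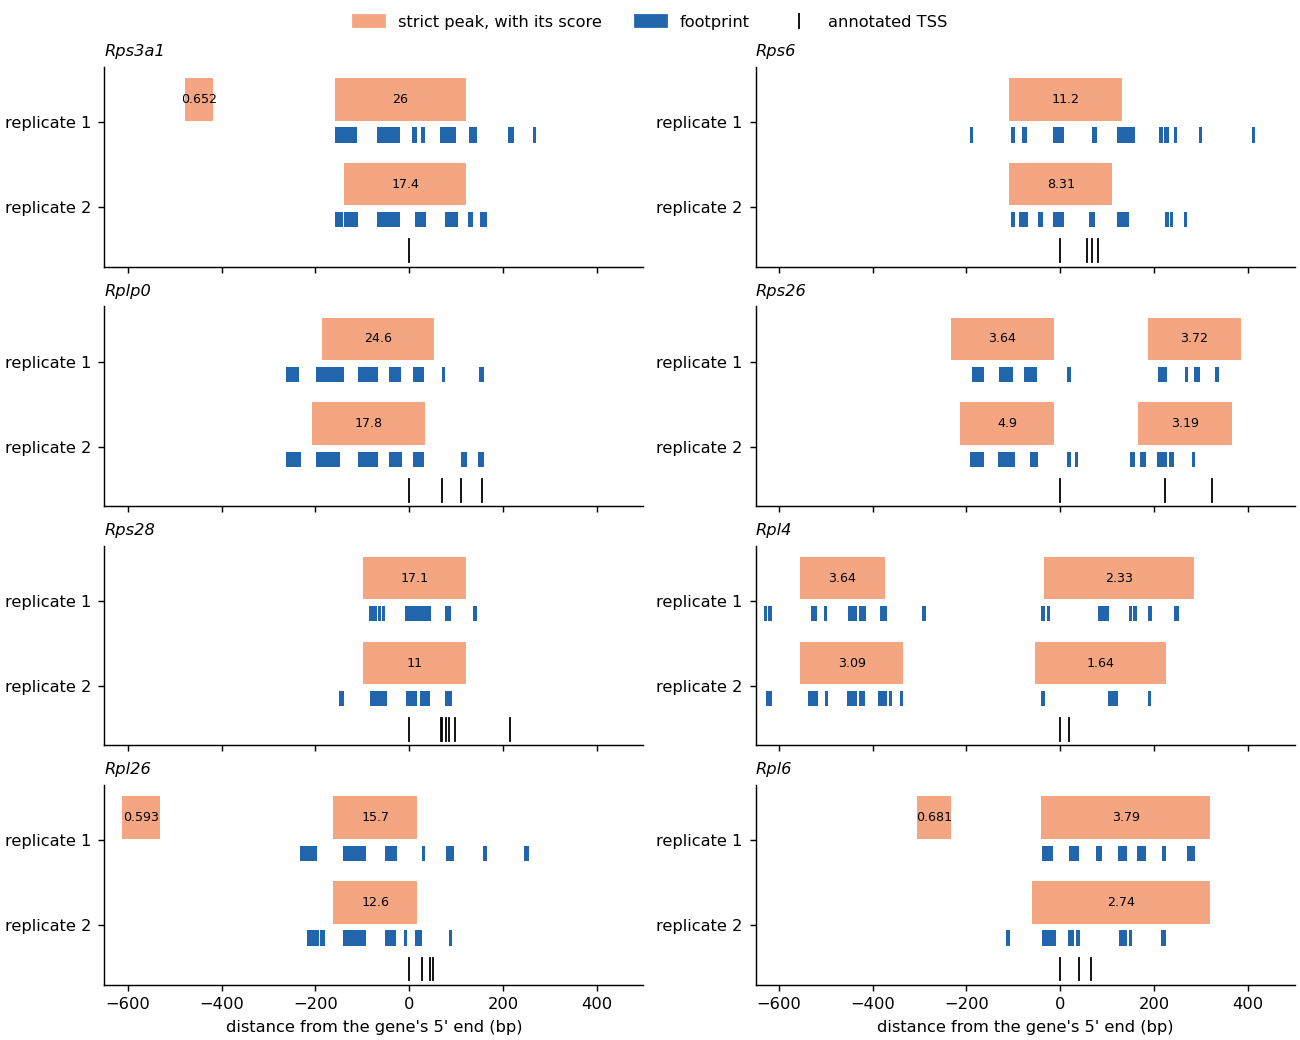
Strict peaks (orange, with their scores), deposited footprints (blue) and annotated TSSs (black ticks) by distance from the gene's 5' end (horizontal axis, bp) for 8 ribosomal protein genes, replicate 1 above replicate 2. Rps3a1, Rplp0, Rps28, Rpl26 and Rps6 have a main peak around the start at the same place in both replicates, while Rps26 and Rpl4 have separate peaks and Rpl6 a wide peak of 3.79 and 2.74.

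Grouped by place in the ribosome, the median was highest for the acidic stalk and lowest around the peptide exit tunnel. The acidic stalk, which recruits elongation factors, is made by Rplp0 (above), Rplp1 with 13 in replicate 1 and 9.97 in replicate 2, and Rplp2 with 12.3 and 8.0. The proteins that carry 5S ribosomal RNA into the large subunit and bind Mdm2 when ribosome assembly fails are Rpl5 with 11 and 9.33, and Rpl11 with 8.53 and 7.83. The replicates of Rpl11 lay close together (8.18 ± 0.499), and both its values were above the medians of accessible genes.

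The 8 members at the mRNA channel and decoding centre, among them Rps2, Rps3, Rps14, Rps15, Rps23, Rps26 and Rps28, were all accessible, with a median of mean scores of 9.15 and a range of 4.31 to 14.1. The highest was Rps28 with 17.1 and 11, and its peak also lies within 1000 bp of a start of Ndufa7. The 9 members around the peptide exit tunnel (Rpl4, Rpl17, Rpl19, Rpl22, Rpl23a, Rpl26, Rpl31, Rpl35 and Rpl39) had a lower median of 6.82, with a range of 3.37 to 14.5. The range of the tunnel group covers that of the decoding group, and its highest genes, Rpl31 (16.5 and 12.5) and Rpl26 (15.7 and 12.6), lay close to Rps28. The single ubiquitin fusion among the members, Rps27a, scored 10.0 and 8.82.

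Members with a known part in T cells were open but not high. Rpl22, whose loss in mice arrests alpha-beta T cell development, scored 8.04 in replicate 1 and 5.95 in replicate 2. Rpl10, mutated in some human T cell leukaemias, scored 6.83 and 3.94, and Rpl5, mutated in the same disease, 11 and 9.33. Rps6, the substrate of S6 kinases whose deletion stops T cell proliferation in mice, scored 11.2 and 8.31. The median of the 4 means was 8.37, below the median of 9.83 over all accessible members, and Rpl22 (mean 6.99) lay close to the median of 6.83 over all accessible genes. Rpl22l1, the paralog of Rpl22 that the symbol rule leaves out, scored 19.8 and 14.5.

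The 18 members mutated in Diamond-Blackfan anaemia in humans, a failure of red cell production, were all accessible, with means of 4.31 (Rps26) to 14.5 (Rpl31) and a median of 10.5. Rps19, the gene most often affected, scored 12.8 in replicate 1 and 9.68 in replicate 2.

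The X-linked members scored lower than the autosomal ones. Rpl36a scored 9.20 in replicate 1 and 6.10 in replicate 2, Rpl10 6.83 and 3.94, Rpl39 6.02 and 4.62, and Rps4x 4.44 and 3.37. Their median mean score was 5.35, against 10.2 over the 74 autosomal accessible members. The same difference was present over all protein-coding genes, with 3.66 over 389 accessible X-linked genes and 7.0 over 12542 accessible autosomal genes. The animals were male and carry a single X chromosome, so copy number and other properties of the X chromosome cannot be told apart.

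Other genes of the translation apparatus were open as often. Of 15 genes listed with the translation factors 15 were accessible, of 78 mitochondrial ribosomal protein genes (Mrpl and Mrps symbols) 78, and of 30 ribosome biogenesis genes 30. The translation factor list also holds Npm1, Hnrnpa1, Tpt1 and the histone chaperone gene Nap1l1, whose mRNA has such a tract. These are not translation factors in the strict sense, and the values given are those of the whole list. The median of mean scores was 9.83 for the ribosomal protein genes, 15.1 for the translation factor list, 7.98 for the mitochondrial ribosomal protein genes and 8.71 for the biogenesis genes, against 6.80 for other accessible genes. Above the median of all accessible promoters lay 14 of 15 (93.3%), 45 of 78 (57.7%) and 19 of 30 (63.3%) of these lists, and in the highest 10% 8 of 15, 8 of 78 and 2 of 30.

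The highest genes of the translation factor list were Eif4a1, the RNA helicase of the cap-binding complex, with 21.3 in replicate 1 and 19.4 in replicate 2, the histone chaperone gene Nap1l1 with 23.6 and 14.4, and the poly(A)-binding protein gene Pabpc1 with 19.7 and 14.7. Among the mitochondrial proteins Mrpl17 was highest with 26.2 and 17.7, close to Rps3a1, then Mrpl2 with 21.1 and 13.9 and Mrps18b with 20.4 and 13.4. Among the biogenesis genes Nolc1 led with 23.3 and 15.4, then Nop56 of the box C/D small nucleolar particles with 20.9 and 13.7, and Wdr12 with 15.1 and 11. Ribosomal proteins outside the symbol rule lay in the range of the members, with Fau at 19.4 and 12.1, Rpsa at 13 and 8.60 and Rack1 at 8.59 and 5.11.

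**Figure D3:**
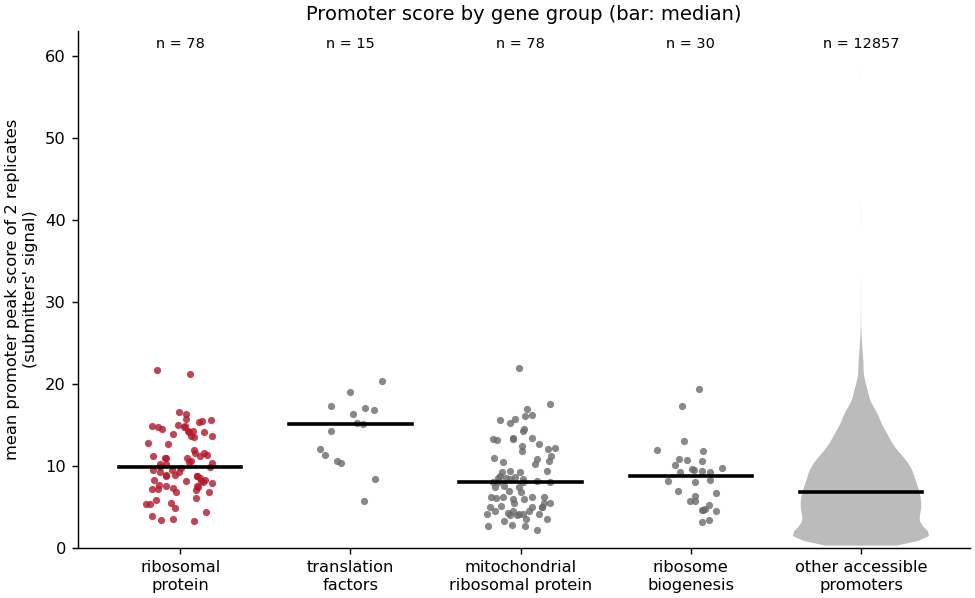
Mean promoter peak score of both replicates (vertical axis, the submitters' signal) for accessible genes of each group, with points for genes, a density shape for 12857 other accessible promoters and bars for medians. The median was 9.83 for 78 ribosomal protein genes, 15.1 for 15 genes of the translation factor list, 7.98 for 78 mitochondrial ribosomal protein genes, 8.71 for 30 biogenesis genes and 6.80 for the others.

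The promoter peaks of ribosomal protein genes were of ordinary size. Their median width was 240 bp in replicate 1 and 220 bp in replicate 2, the same as over other accessible genes, and the median number of deposited footprints overlapping the peak was 5 in each replicate in both sets. A footprint is a short stretch protected from cutting inside open DNA, as a bound protein leaves it. Across the 78 members, which share the same libraries, mean score and mean width were nearly unrelated (Pearson -0.14, Spearman -0.07). Footprint number followed width (Pearson 0.74, Spearman 0.69).

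The widest peaks belonged to Rpl10 (560 bp in replicate 1 and 320 bp in replicate 2), Rps25 (660 and 220 bp) and Rps19 (720 and 120 bp). The widths of Rps25 and Rps19 rest on replicate 1. The narrowest were Rpl7a (120 and 180 bp), Rpl36 (120 and 180 bp) and Rpl38 (220 and 100 bp). Rpl10 held the most footprints, 15 and 9, followed by Rps18 with 11 and 12, Rps25 with 15 and 7, Rpl23a with 11 and 7 and Rpl27 with 8 and 8. Of these, Rps18 and Rpl27 held about as many in both replicates.

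The peaks sat on the start of the gene more often than in other open promoters. The peak overlapped an annotated TSS in both replicates in 65 of 78 members (83.3%), against 8983 of 12857 other accessible genes (69.9%). Its centre lay at a median of -21.0 bp from the nearest TSS in replicate 1 and -30.0 bp in replicate 2, upstream in both, and at -28.5 and -33.5 bp in the other genes. A single strict peak within 1000 bp of any TSS was found in 45 of 78 members in each replicate (57.7%), against 47.5% and 39.1% of other accessible genes in replicates 1 and 2. The members had a median of 6 annotated TSSs each and the accessible genes in all 5.

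Around the 5' end, cutting was significant over a larger share of ribosomal protein promoters. At 0 to 9 bp, 94.9% of bases in replicate 1 and 93.6% in replicate 2 passed a false discovery rate of 0.001 in the submitters' track, against 83.6% and 82.8% in other accessible genes. The members that fell short include Rps2, Rpl17 and Rps10, whose annotated 5' end lies away from their promoter peak and had 0, 0 and 51 bp at that level within 1000 bp in replicate 1. Footprints were dense in the members both upstream and just downstream of the 5' end. At -70 to -61 bp they covered 40.6% of bases in replicate 1 and 40.6% in replicate 2, against 26.3% and 28.5% in other genes. At 10 to 19 bp they covered 39.9% and 41.4%, against 23.0% and 24.7%. Between these, at -30 to -21 bp, the sets lay closer together, with 31.2% and 32.1% in members and 30.1% and 30.7% in other genes.

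**Figure D4:**
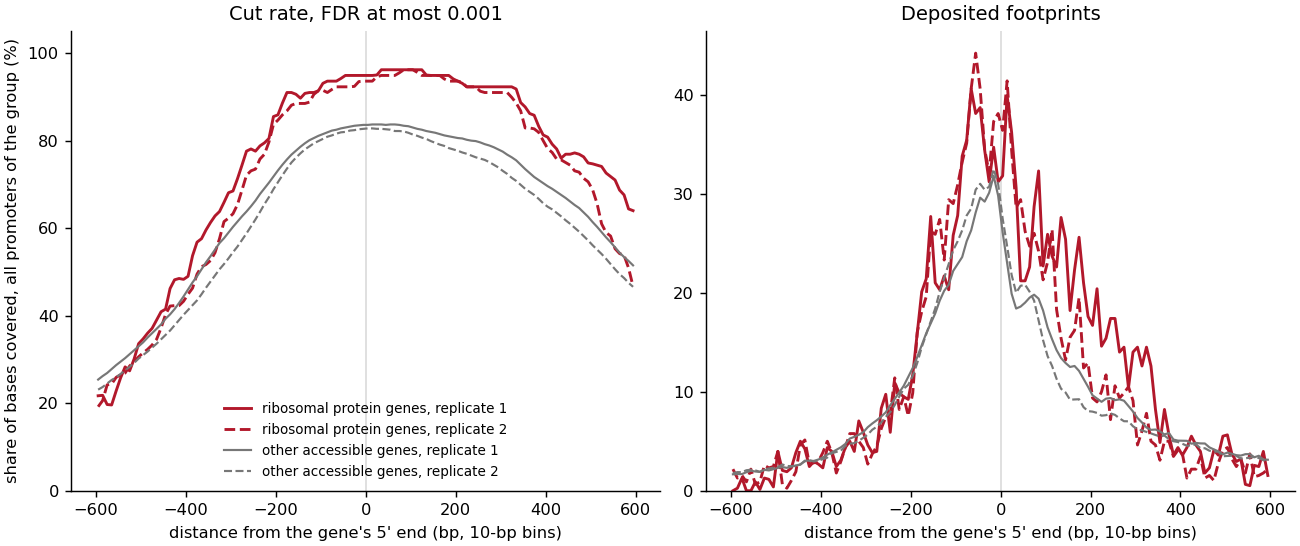
Share of bases (vertical axis, %) at a false discovery rate of at most 0.001 (left) and inside deposited footprints (right) by distance from the gene's 5' end (horizontal axis, 10-bp bins), for 78 ribosomal protein genes (red) and 12857 other accessible genes (grey), replicate 1 solid and replicate 2 dashed. Members reach 94.9% and 93.6% at the 5' end, against 83.6% and 82.8%, and their footprints cover 40.6% and 40.6% at -70 to -61 bp and 39.9% and 41.4% at 10 to 19 bp.

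The sequences of the promoter peaks differed from those of other open promoters in a few motifs. Motifs were searched as exact letters on both strands in the promoter peak of replicate 1, and the share of all other accessible promoters with a match is given beside each. The palindrome CTCGCGAG, the core of the site bound by BANP, was present in 11 of 78 members (14.1%), against 277 of 12857 other accessible genes (2.15%). The ETS site CCGGAAG was present in 32 members (41.0%), against 20.4%, and the TATA box letters TATAAA in 9 (11.5%), against 2.78%. The YY1 site AAGATGGC was present in 9 (11.5%), against 5.50%. The CRE TGACGTCA was present in 5 (6.41%), against 3.89%. Mitochondrial ribosomal protein genes had similar shares of the ETS site (39.7%) and the YY1 site (15.4%) in their peaks, and 32.1% with the SP/KLF site described next. Their share was 3.85% for CTCGCGAG and 2.56% for TATAAA.

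Of the other motifs, the SP/KLF site was less frequent in the members' peaks. The rest lay near or a little below the share of other promoters, several of them on counts of 0 to 7 members. The SP/KLF site GGGGCGG was present in 22 of 78 peaks (28.2%), against 46.2%, and the NF-Y letters CCAAT in 22 (28.2%), against 34.4%. The E box CACGTG, the letters bound by Myc, was present in 7 (8.97%), against 10.3%, and the NRF1 site GCGCATGC in 4 (5.13%), against 6.11%. Of the sites of T lineage factors, the RUNX letters TGTGGTT were found in 2 (2.56%), against 3.16%, and the TCF/LEF letters CTTTGAT in 0, against 1.57%. The ZNF143 letters ACTACAATT were found in 0, against 0.614%. For the E box and ZNF143 the direction depends on the window. From 250 bp before to 50 bp after the 5' end, CACGTG was found in 13.4% of the 82 members, against 7.75% of all protein-coding genes and 10.1% of accessible ones. There ACTACAATT was found in 2.44% of the members, against 0.497% of all and 0.657% of accessible genes. For TATAAA the direction depends on the genes it is set against, with 9.76% of the members there, against 12.6% of all and 7.28% of accessible genes. For CCGGAAG the shares there were 26.8% of members, against 10.8% of all and 16.6% of accessible genes. Median GC content within 250 bp before to 50 bp after the 5' end was 55.5% in the members and 59.7% in accessible genes. The motifs differ in GC content, and the part of base composition in these shares was not tested.

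**Figure D5:**
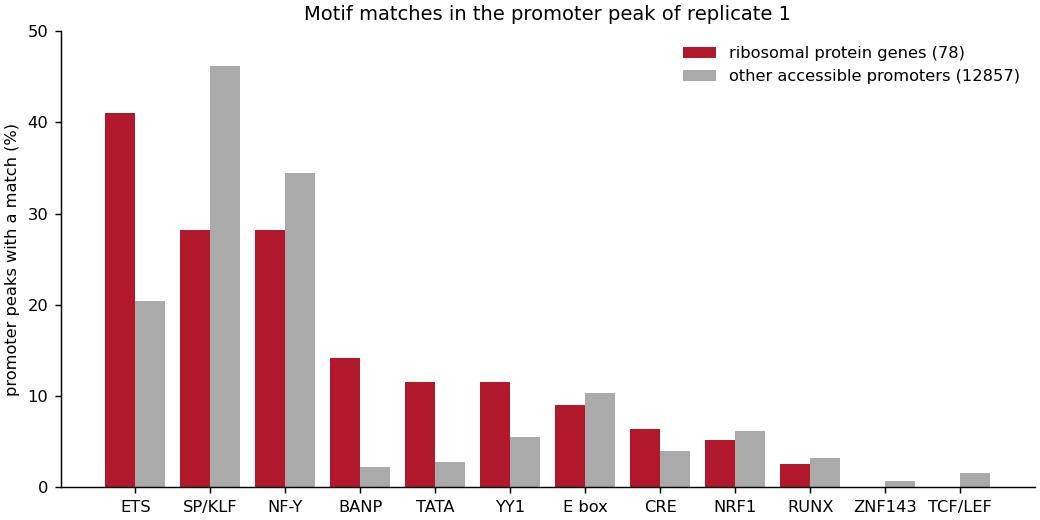
Share of promoter peaks of replicate 1 (vertical axis, %) with an exact match of each motif on either strand, in 78 ribosomal protein genes (red) and 12857 other accessible promoters (grey). ETS stands at 41.0% against 20.4%, BANP at 14.1% against 2.15% and TATA at 11.5% against 2.78%, while SP/KLF is at 28.2% against 46.2%.

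The CTCGCGAG matches coincided with footprints throughout. All 12 matches, in 11 members, overlapped a deposited footprint in both replicates by at least 1 bp, while among other accessible genes with the motif 208 of 277 (75.1%) had such a match. Those printed here lay between 67 bp upstream and 0 bp from the nearest TSS. In the window of 250 bp before to 50 bp after the 5' end the motif was found in 7 of all 82 members, against 1.21% of all protein-coding genes. There Rpl4 had a match at -242 bp that lay in no footprint of both replicates. Sites of 8 of these members are shown with 11 bases on either side, 5' to 3' on the strand of the gene, with the motif in capitals (mm10), because of the motifs searched this had the largest ratio of the members' share to that of other promoters.
Rpl12 (chr2:32961648-32961677, plus strand): ggccagcggttCTCGCGAGagctgagcttt
Rps6 (chr4:86857399-86857428, minus strand): cgccggctgttCTCGCGAGaacttagagcg
Rps19, first site (chr7:24884555-24884584, plus strand): gtttagccgctCTCGCGAGcactccgaaat
Rps19, next site (chr7:24884574-24884603, plus strand): cactccgaaatCTCGCGAGactcgacgccc
Rpl27a (chr7:109519162-109519191, plus strand): gcgcctgctacCTCGCGAGacttcgtgagc
Rpl26 (chr11:68901530-68901559, plus strand): gctccgagactCTCGCGAGatctcgcggca
Rps7 (chr12:28635879-28635908, minus strand): tatgagccgttCTCGCGAGagccgtccctc
Rpl10a (chr17:28328524-28328553, plus strand): aacgggcaactCTCGCGAGaacgcgggctc
Rps28 (chr17:33824544-33824573, minus strand): ccgcgtgcggtCTCGCGAGagcgaaagtga

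These members are spread over both subunits and over the range of scores. Rpl27a had 16.7 in replicate 1 and 12.9 in replicate 2, and Rps28 17.1 and 11. Rps7, which takes part in processing of small-subunit RNA, had 9.79 and 6.67, and Rps6 11.2 and 8.31. The matches in Rps28 and Rpl12 lie in peaks that are also within 1000 bp of a start of a neighbouring gene, Ndufa7 and Lrsam1.

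The ETS and TATA matches were less regular. Of the 32 members with an ETS match in the peak, 16 had it in a footprint of both replicates, against 60.2% of other genes with a match. Such matches lay 19 bp upstream of the nearest TSS in Rpl15, Rpl31 and Rps25. Of the 9 members with TATAAA, 6 had it in a footprint of both replicates (66.7%), against 35.2% of other genes. In Rps28 the match lay 31 bp upstream of the nearest annotated TSS, about where TATA boxes are known to work. In Rplp0 and Rps2 it lay 17 bp downstream of the nearest annotated TSS, and in Rpl3 23 bp downstream.

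The promoters of the 2 highest members and of the lowest by mean score are printed as the part of the replicate 1 peak upstream of the annotated 5' end, with bases that lie in a footprint of both replicates in capitals (mm10, 5' to 3' on the strand of the gene). Rpl26 is added to show the footprint over CTCGCGAG within its promoter.
Rps3a1 (chr3:86142703-86142860, minus strand): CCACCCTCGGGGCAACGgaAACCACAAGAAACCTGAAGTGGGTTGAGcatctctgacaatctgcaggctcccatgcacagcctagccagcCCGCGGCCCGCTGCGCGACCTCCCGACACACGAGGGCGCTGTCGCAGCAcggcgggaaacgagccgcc
Rplp0 (chr5:115559281-115559466, plus strand): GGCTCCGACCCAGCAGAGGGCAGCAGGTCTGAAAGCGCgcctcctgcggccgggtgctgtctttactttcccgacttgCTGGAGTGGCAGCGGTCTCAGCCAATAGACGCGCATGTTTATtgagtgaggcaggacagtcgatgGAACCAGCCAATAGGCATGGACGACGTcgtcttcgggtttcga
Rpl26 (chr11:68901421-68901582, plus strand): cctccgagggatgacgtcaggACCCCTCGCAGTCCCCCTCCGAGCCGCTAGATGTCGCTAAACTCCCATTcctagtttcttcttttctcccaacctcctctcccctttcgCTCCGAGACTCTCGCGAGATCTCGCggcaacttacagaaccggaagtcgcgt
Rpl6 (chr5:121204441-121204480, plus strand): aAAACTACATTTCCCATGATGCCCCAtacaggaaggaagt

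In Rps3a1, 94 of the 158 bases lay in footprints of both replicates, in Rplp0 107 of 186, in Rpl26 74 of 162 and in Rpl6 25 of 40. The Rplp0 stretch holds the NF-Y letters at -87 and -36 bp from the 5' end, both inside footprints. The Rps3a1 stretch holds the RUNX letters on the opposite strand at -139 bp, inside a footprint. In Rpl26 the CRE at -151 bp lay in no footprint of either replicate. The ETS match at -13 bp overlapped a footprint of replicate 2 alone, at -10 to -4 bp. Of the motifs searched in Rpl26, CTCGCGAG lay in a footprint of both replicates.

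Pyrimidine runs at the start were more frequent in ribosomal protein genes on every set of starts examined. A run of C or T of at least 5 bases that covers a base within 3 bp of the annotated 5' end was found in 34 of 82 members (41.5%), against 26% of all protein-coding genes. At RefSeq starts, available for 62 members, it was 32 of 62 (51.6%), against 29.4%. At least 8 bases were found at the 5' end in 20.7% of members, against 8.05% of all genes. Such a run was found at any annotated TSS in 53 of 82 members (64.6%), against 24.2% of all genes and 17.9% of mitochondrial ribosomal protein genes. Genes with more annotated starts have more chances of a match. Counted per annotated TSS, 107 of 465 (23.0%) had such a run in the members, against 7.61% over all genes.

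Starts inside the open promoter were also counted on their own. Among the 65 members with an annotated TSS inside the promoter peak of both replicates, 38 (58.5%) had a run of at least 8 at such a TSS, against 1008 of 8880 other accessible genes (11.4%). The first base was C at 145 of 465 annotated TSSs of the members (31.2%), against 19.3% of all. The longest runs at starts inside the peak are printed below as 30 bases around the run, with the run in capitals (mm10, 5' to 3' on the strand of the gene). They were chosen for their length.
Rpl27a (chr7:109519186-109519215, plus strand): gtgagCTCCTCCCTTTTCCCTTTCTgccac
Rpl34 (chr3:130730330-130730359, minus strand): acccgCCCCTTCCTTTTCCTCTTCCgggga
Rps2 (chr17:24720098-24720127, plus strand): cggcgCCTCCCTCTTCTTCTTCTTCgggag
Rps24 (chr14:24490711-24490740, plus strand): agcggTCCTCTTTTCCTCCTCTCCagctcc
Rpl29 (chr9:106429521-106429550, plus strand): tgcgggCCTTTCTCTTTCTCTTCCggtctc
Rpl35 (chr2:39005115-39005144, minus strand): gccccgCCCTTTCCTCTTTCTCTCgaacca
Rpl32 (chr6:115808728-115808757, minus strand): gccgccgCCTCTTCCTTCTTCCTCggcgct

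The printed runs are 20 bases long in Rpl27a, Rpl34 and Rps2, 19 in Rps24, 18 in Rpl29 and Rpl35 and 17 in Rpl32. The annotated TSS was a C in Rpl27a, Rps2, Rps24, Rpl29 and Rpl32, a T in Rpl35 and a G in Rpl34, where the run ends 1 base upstream of the annotated start. The runs of Rpl35 (-16 to 1 bp from the annotated TSS) and Rpl29 (-11 to 6 bp) also lay mostly upstream of it. Neither the highest member nor the next had a long run, with a longest run at any TSS of 2 bases in Rps3a1 and 4 in Rplp0. Their neighbour in the ranking, Rpl23, had 10.

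Ribosomal protein genes had about as many distal regions nearby as other open genes. Distal regions were peaks shared by both replicates more than 1000 bp from any TSS, 29398 in all, and each gene was given those within 50000 bp of its TSSs. The median was 3 per accessible member and 3 per accessible gene, and 6 of 78 members (7.69%) had 0, against 13.6% of accessible genes. Those with 0 were Rpl7, Rps27, Rpl27a, Rps27a, Rpl37 and Rpl36. Distal number and promoter score were nearly unrelated across the 78 members (Pearson 0.11, Spearman 0.16). Rpl27a and Rpl37 had mean scores of 14.8 and 14.7 with 0 shared distal regions.

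Rpl19 had the most, 14 shared regions, with 19 distal peaks in replicate 1 and 16 in replicate 2, over chr11:97977861-98075680. Its own promoter scored 6.60 and 4.96, below the medians of accessible genes, while its distal peaks reached 11.2 and 8.61. Rps16 followed with 9 shared regions (11 and 12 per replicate), Rpl11 with 8 (17 and 11) and Rpl14, Rplp1 and Rps14 with 7 each. These intervals hold other genes, and the counts do not say which gene a region belongs to.

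In Rpl24 the replicates differed in distal peaks. Within 50000 bp of its TSSs replicate 1 had 5 distal peaks and replicate 2 had 26, of which 21 were not in the strict list of replicate 1 and 1 was in its looser list. Those 21 had a median score of 0.231, and the distal peaks of replicate 2 spanned chr16:55942862-55964800. The promoter of Rpl24 scored 10.9 and 8.85. Rpl5 showed a smaller difference of the same direction, with 2 distal peaks in replicate 1 and 9 in replicate 2, and Rpl11 the opposite, with 17 and 11.

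Ribosomal protein genes were short and often carried small nucleolar RNAs. The median gene length was 3266 bp over accessible members, against 24555 bp over accessible genes. A small nucleolar RNA gene, which guides chemical modification of ribosomal RNA and is cut out of an intron, lay on the same strand inside 29 of 78 accessible members (37.2%), against 1.6% of accessible genes, with 55 such RNAs in all. Rpl4 held the most, 5, and Rpl13a held 4. The median of mean scores was 11.1 in the 29 host members and 9.21 in the 49 others, with ranges that overlapped from 3.26 to 21.7 and 3.91 to 21.2. Rps3a1 with 2 such RNAs was the highest host and Rpl6 with 1 the lowest.

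A start annotated to another gene lay within 1000 bp of the peak in 16 of 78 members (20.5%), against 20.9% of accessible genes. It was on the opposite strand in 15 of the 16, against 2384 of the 2705 accessible genes with such a start. In Rps10 the other gene was RPS10-NUDT3, whose name includes Rps10 itself. The highest of the 16 members were Rpl7a, next to Med22, and Rpl9, next to Lias. The median of mean scores was 10.2 in these 16 members and 9.83 in the 62 others. The number of CpG dinucleotides within 250 bp before to 50 bp after the 5' end went with the mean score in the members (Pearson 0.48, Spearman 0.48, n = 78) and less so over all accessible genes (0.25 and 0.30), as descriptions across genes of the same libraries. In some members, among them Rps2, Rps14, Rpl17 and Rpl3, that window lies away from the scored peak, so the CpG number does not describe the scored promoter.

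Processed pseudogenes of these genes were mostly closed. Of 294 genes annotated as pseudogenes with an Rpl or Rps symbol ending in -ps, 6 (2.04%) had a strict peak in both replicates within 1000 bp of a TSS, against 267 of 9940 processed pseudogenes of any kind (2.69%). The highest was Rpl34-ps1 on chromosome 6 with a mean of 2.61, below the lowest accessible member (3.26). The copies share sequence with their parent genes. A median of 38.1% of the 31-base words in the 294 bodies was unique in the genome. The promoter peaks of the members were largely unique, with at least 90% unique words in both replicates in 59 of 78 members and only unique words in 28, and how reads with several placements were treated is not given in the sources used here.

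The replicates gave a similar order of the members and differed in level. Replicate 2 was lower in 75 of 78 members (96.2%), against 89.1% of other accessible genes, with a median log2 ratio of the scores (replicate 2 over replicate 1) of -0.45 in members and -0.37 in other genes. Across the members, log2 scores of the replicates correlated at 0.93 (Pearson) and 0.92 (Spearman), against 0.98 and 0.97 over all 12935 accessible genes. The highest peaks of both replicates overlapped by at least 1 bp in 76 of 78 members, and did not in Rps26 and Rpl7. The exceptions in level were Rps26 (log2 ratio 0.40, from different peaks), Rpl36 (0.08) and Rps21 (0.07), which were higher in replicate 2. The largest differences were in Rpl21 (12.3 in replicate 1 and 5.29 in replicate 2, log2 ratio -1.22), Rpl35a (8.96 and 4.52, -0.99), Rps27 (7.78 and 4.31, -0.85), Rps29 (14.1 and 7.79, -0.85) and Rpl10 (6.83 and 3.94, -0.79). With a single sample on each side, no test of these differences was possible.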

How the data were processed

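DNase-seq was measured in 2 thymus samples of 1 group. The peak signal is the deposited score of each peak, per the labels and file descriptions called per sample on mm10; for its scaling, aligner and peak caller the entry is: not given in the sources used here. The deposited false discovery rate track gives an adjusted p-value (q-value) per stretch and lists only those under 0.05. The deposited footprints carry a constant 0.01 and were used as positions. The strict list of each replicate was the peak file with fewer entries, and overlapping entries were joined, keeping the highest score. Peaks were assigned to annotated TSSs of GENCODE M21 within 1000 bp and counted as shared at an overlap of at least 1 bp. Motifs and pyrimidine runs were exact matches in the mm10 sequence. RefSeq starts were matched by symbol. A run counted when it reached within 3 bp of the TSS.

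The members and lists were chosen with earlier results of these data known. Named genes were the 10 highest and 5 lowest promoters, members without a peak, extremes of width, footprints, distal peaks and replicate difference, members on X and of the role lists, and the 3 highest of each other list. The genes whose sequences are printed, and those named for a motif or a pyrimidine run, were chosen after their values were seen. No test was made, as 1 group of 2 samples allows none. The steps were tested on simulated data. Analyses used Python 3.11.15 with matplotlib 3.10.9, pandas 2.3.3, numpy 2.4.6 and scipy 1.17.1. Values of a few genes are not reported here.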

Additional observations from a re-analysis of the deposited data

How the results depend on the processing

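Of 222 alternative values computed, 207 stayed within the limit set for their kind and 15 did not. For counts the limit was a fixed fold range, and for shares with a motif or pyrimidine run a 95% confidence interval. For other values it was the SD of the replicates. In single genes that SD always exceeds the shift from leaving out a replicate, so those values could not fall outside it. The number of accessible members was 78 without either replicate. Median peak width was 220 to 240 bp when a replicate was left out. The median number of distal regions (3) was 1 within 25000 bp, 5 within 100000 bp, 2 at 50% reciprocal overlap, 4 with the looser list and 2 with the 50000 highest peaks, each equal to the value over all accessible genes. It was 3 to 4 when a replicate was left out, against 3 over accessible genes without replicate 2. The peak centre lay at a median of -4.50 bp against the 5' end of the gene, instead of the nearest TSS. In the promoter peak itself, in place of the window around the 5' end, the ETS share was 41.0% and the ZNF143 share 0%. The share with a pyrimidine run at the 5' end was 20.7% for at least 8 bases, against 8.05% of all genes. For at least 5 bases it was 85.4% at any annotated TSS, against 57.2% of all genes and 65.9% of accessible ones. At TSSs inside the peak, a setting chosen after seeing the data, it was 73.8%, against 38.2% of other accessible genes. Causes of these shifts other than the changed definition were not tested. No paired analysis was possible because there is only 1 group. Depth is unknown, so no counting error could be given.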
